A study of Mus musculus with 8 samples.

Results

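The 45 genes described here encode the machinery that copies DNA in S phase, with the cyclins and transcription factors that open it. They were chosen by symbol, from a list covering origin licensing, the replicative helicase, the clamp and its loader, polymerases, nucleotide supply, chromatin assembly and cyclin E and E2F factors. All 45 symbols were found once each among the 52636 genes of the count table, and all 45 passed the filter on low counts, which kept 17261 genes. Mice of 35 to 55 days, still without signs of disease, gave immune cells of spleen and lymph node, which then spent 4 days in culture. The cultures held anti-CD3 (1 μg/ml), IL-23 and IL-6 (20 ng/ml each), human TGF-β (4 ng/ml) and IL-12 (3 ng/ml), a mixture that pushes T cells toward TH1 and TH17 states. All 4 groups had the same culture: TCR1640 females, TCR1640 males, SJL/J females and SJL/J males, with 2 count columns each. TCR1640 is a line with a myelin-specific T cell receptor transgene bred on SJL/J, and SJL/J mice served as wild type. The design sets female against male mice of one strain, and one strain against the other in one sex, in bulk RNA of mixed immune cells.

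Before a cell divides, the origin recognition complex, Cdc6 and Cdt1 load rings of MCM proteins onto DNA. In S phase Cdc45 and the GINS complex turn these rings into moving helicases, polymerases extend primers behind them, and the PCNA clamp holds the polymerases on DNA. Cyclin E with its kinase releases E2F factors from the retinoblastoma protein, and E2F then drives most of these genes. Naive T cells are quiescent and hold little of this machinery, whereas T cells stimulated through CD3 take it up as they enter the cycle.

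Column totals ran from 3765291 to 5116467 counts. Between the 2 columns of one group the chi-square per degree of freedom was 1.05 to 1.08 over genes with at least 20 counts, close to sampling noise, against 3.12 to 17.05 between groups. The gene Gm43333 was left out of this check. Each pair was added up and taken as 1 sample, so that n = 1 per group. The sex labels matched Xist (668 to 784 counts in female columns, 25 to 44 in male columns) and Eif2s3y (0 in female columns, 87 to 124 in male columns). The strain labels were less clear. Traj43, 1 of the alpha joining segments of the T cell receptor, took 75.5% (exact 95% interval 71.3 to 79.4) of such counts in the female library labelled SJL/J and 79.2% (75.05 to 82.95) in the male one. It took 5.04% (1.87 to 10.7) and 2.91% (0.95 to 6.65) in the female and male libraries labelled TCR1640. A receptor transgene would narrow segment use, so these shares go against the labels, and strain names below mean the labels of the libraries. Intervals here cover counting error only.

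Markers of several other cell types moved with the strain labels. Erythroid and dendritic cell markers overlapped between the labels, and monocyte markers differed little. The 7 neutrophil markers summed to 2.32 to 5.80 counts scaled to library size (CPM) in the libraries labelled TCR1640, where S100a8 and Elane were at 0, and to 58.1 to 150.8 CPM in those labelled SJL/J. The 5 megakaryocyte markers summed to 10.3 to 11.2 CPM against 148.2 to 253.6, with Ppbp at 0 in both libraries labelled TCR1640. Ltf and Gp1bb were also at 0 in the TCR1640 female library. The 8 T cell markers summed to 1218 and 1328 CPM in females and males labelled TCR1640, and to 848 and 943 in those labelled SJL/J. Mast cell markers summed to 54.1 to 57.7 CPM under the TCR1640 label and 79.8 to 98.7 under the SJL/J label, plasma cell markers to 69.5 to 78.4 and 93.2 to 96.7, and B cell markers to 44.6 to 46.5 and 28.6 to 34.2. Natural killer cell markers summed to 21.8 to 30.9 and 11.7 to 13 CPM, erythroid markers to 32.0 to 34.02 and 34.0 to 55.2. Monocyte markers summed to 127.6 to 139.2 CPM and dendritic cell markers to 314.4 to 378.3 over the 4 groups. The part these cells had in the results below was not tested. In bulk RNA, fewer dividing cells and less of each transcript per dividing cell cannot be told apart.

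The promoters of these genes are shown first, because many of them share a word that E2F factors bind. RefSeq promoter windows on GRCm38.p6, from 250 bases before to 50 bases after a transcript start, were found for 37 of the 45 genes. The windows are of the reference strain, not of SJL/J mice. The 4 E2F words searched on both strands were TTTGGCGC, TTTCGCGC, TTTCCCGC and TTTGCCGC. At least 1 of them stood in a window of 14 of the 37 genes (37.8%), against 704 of all 27025 genes with a window (2.6%). Base composition differs between the sets, with a median GC share of 61.3% in member windows and 52.7% in all windows. Among windows of 55 to 70% GC, 11 of 25 member windows held a word (44.0%), against 4.0% of 11266. The CCAAT box, bound by NF-Y, stood in windows of 62.2% of the members and 41.1% of all genes.

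The stretches below are 100 bases that lie before a RefSeq transcript start. Other starts exist: Uhrf1 has an earlier RefSeq start, and the GENCODE gene bounds hold all of the Cdc6 and Uhrf1 stretches and the near end of the Rfc3 and Ccne1 stretches, with the E2F word of Rfc3. They come from members that were lower under the TCR1640 label and have no exon of another gene on their opposite strand. The 6 shown are all of these with an E2F word fully before such a start. The stretch of Ccne1, the 1 member that was higher, is set beside them and holds none of the words. Since the 6 were picked for holding a word, this contrast is not a result. Capitals mark the E2F words on either strand. In Mcm5 and Mcm6, words on opposite strands overlap and form 1 longer run.
Cdc6, chr11:98907967-98908066, plus strand: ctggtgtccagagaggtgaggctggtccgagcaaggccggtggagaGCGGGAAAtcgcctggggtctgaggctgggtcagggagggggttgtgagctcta
Mcm5, chr8:75109312-75109411, plus strand: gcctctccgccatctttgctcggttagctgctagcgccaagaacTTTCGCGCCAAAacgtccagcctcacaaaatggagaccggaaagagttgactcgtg
Mcm6, chr1:128359731-128359830, minus strand: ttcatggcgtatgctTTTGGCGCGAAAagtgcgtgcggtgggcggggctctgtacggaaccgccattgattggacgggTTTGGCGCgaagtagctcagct
Pola1, chrX:93632240-93632339, minus strand: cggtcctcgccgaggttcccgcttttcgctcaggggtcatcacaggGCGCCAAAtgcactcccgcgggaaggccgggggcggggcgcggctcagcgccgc
Rfc3, chr5:151651209-151651308, minus strand: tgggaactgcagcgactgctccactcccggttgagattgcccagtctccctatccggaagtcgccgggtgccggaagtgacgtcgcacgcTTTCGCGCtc
Uhrf1, chr17:56304082-56304181, plus strand: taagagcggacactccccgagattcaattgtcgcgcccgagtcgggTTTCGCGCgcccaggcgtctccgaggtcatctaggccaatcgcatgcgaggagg
Ccne1, chr7:38107491-38107590, minus strand: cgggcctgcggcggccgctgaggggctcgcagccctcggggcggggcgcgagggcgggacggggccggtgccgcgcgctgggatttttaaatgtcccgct

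Replication genes were lower in the libraries labelled TCR1640. In edgeR's quasi-likelihood test over both sexes, with adjustment over all 17261 genes, 23 of the 45 members fell, 1 (Ccne1) rose and 21 did not pass. Among all genes 13.1% fell and 13.4% rose. The members' median log2 difference was -0.50, against 0.01 over all genes tested, and their range ran from -1.06 to 0.66. The 30 members without an exon of another gene on the opposite strand gave 17 that fell and 1 that rose, with a median of -0.57. In 24 members all 4 columns labelled TCR1640 lay below all 4 labelled SJL/J, an arrangement that 16.3% of all genes showed. The reverse arrangement held for Ccne1 and Gins2, and for 16.5% of all genes. This test had 4 summed samples. It set each strain difference against how far strain differences varied between the sexes, not against spread between mice. That error was shared across genes, so the SE of a gene reflects its own values only in part. The log2 strain difference in males minus that in females was -0.68 for Rfc3, with an SE of 0.19. For Gins2 it was -0.05, with an SE of 0.11. DESeq2 on the same samples called 8 members lower (Mcm3, Mcm6, Rfc3, Rfc5, Rrm1, Rrm2, Dut and Chaf1a) and 0 higher. Of all 17261 genes DESeq2 called 746 lower and 664 higher. The other 15 members that fell in edgeR had a DESeq2 adjusted p from 0.0571 (Mcm2) to 0.554 (Cdc6).

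**Figure D1:**
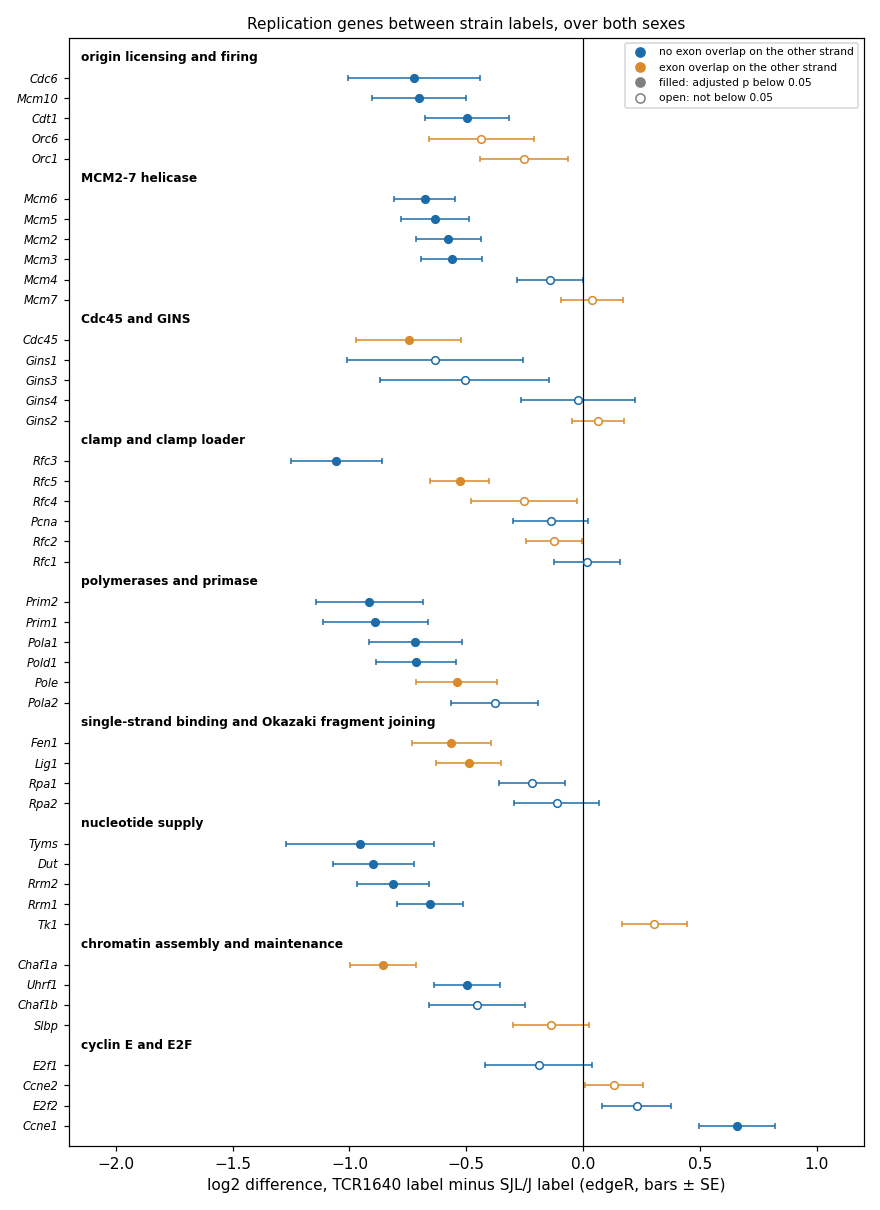
Log2 difference between the libraries labelled TCR1640 and SJL/J over both sexes, for each of the 45 genes by role (points, edgeR estimates; bars, SE; filled points, adjusted p below 0.05). Most points lie left of 0, Rfc3 is the lowest at -1.06, and Ccne1 stands alone on the right among filled points at 0.66.

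Of 5 origin licensing genes, Cdc6, Cdt1 and Mcm10 fell, and Orc1 (-0.25) and Orc6 (-0.44) did not pass. Cdc6, an ATPase that brings MCM rings to origins, stood at 3.95 and 4.54 CPM in the 2 columns of TCR1640 females, 5.59 and 3.74 in TCR1640 males, 10.3 and 4.49 in SJL/J females and 6.52 and 8.29 in SJL/J males. Its columns overlap between the labels, because 1 SJL/J female column was low. The log2 difference of Cdc6 was -0.72 (SE 0.28, adjusted p = 0.0405), on 33 to 61 summed counts per group. Without SJL/J female 1 it was -0.44 (adjusted p = 0.332). Cdc6 also lost its call without SJL/J male 2 (adjusted p = 0.106), TCR1640 female 1 (0.0804), TCR1640 female 2 (0.0619) or TCR1640 male 2 (0.14), and in DESeq2 (0.554). Cdt1, which loads MCM rings with Cdc6, stood at 12.9 and 9.34 CPM in TCR1640 females, 19.7 and 13.6 in TCR1640 males, 21.9 and 19.6 in SJL/J females and 20.3 and 16.3 in SJL/J males. It was low mainly in TCR1640 females, and the male columns overlap. Its log2 difference was -0.50 (SE 0.18, adjusted p = 0.0268). That call did not hold without SJL/J female 1 (adjusted p = 0.0842), SJL/J female 2 (0.0746), SJL/J male 1 (0.1), TCR1640 female 2 (0.174) or TCR1640 male 2 (0.222), with no filter on low counts (0.0588), or in DESeq2 (0.512). Mcm10, which helps start the helicase, had a log2 difference of -0.70 (SE 0.20, adjusted p = 0.00331, and 0.297 in DESeq2), with no overlap between the labels.

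The MCM helicase is a ring of 6 related subunits, of which 4 fell. Mcm2, Mcm3, Mcm5 and Mcm6 fell by 0.56 to 0.68 on the log2 scale, while Mcm4 and Mcm7 did not pass. Mcm6 stood at 65.1 and 66.7 CPM in TCR1640 females, 73.7 and 74.9 in TCR1640 males, 111.7 and 115.4 in SJL/J females and 114.5 and 108.002 in SJL/J males. Every TCR1640 column was below every SJL/J column, and the columns of a group lay close together. Its log2 difference was -0.68 (SE 0.13, adjusted p = 4.04e-06). Mcm4 stood at 50.9 and 41.9 CPM in TCR1640 females, 52.6 and 48.2 in TCR1640 males, 52.4 and 46.7 in SJL/J females and 55.6 and 59.3 in SJL/J males. Those groups overlap, and the log2 difference of Mcm4 was -0.14 (SE 0.14, adjusted p = 0.514). Mcm7 stood at 0.04 (SE 0.13), and its exons overlap Ap4m1 and Cops6 on the other strand. Whether Mcm4 and Mcm7 differ from the other subunits was not tested. The summed counts per group of Mcm2, a subunit that also binds histones, were 327 in TCR1640 females, 561 in TCR1640 males, 572 in SJL/J females and 609 in SJL/J males.

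Cdc45 and the GINS complex join the MCM ring to make the active helicase. Of these 5 members only Cdc45 fell, with a log2 difference of -0.75 (SE 0.23, adjusted p = 0.00535, and 0.342 in DESeq2), and its exons overlap Ufd1. Gins1 stood at 1.84 and 2.02 CPM in TCR1640 females, 2.69 and 3.34 in TCR1640 males, 2.46 and 3.07 in SJL/J females and 5.48 and 4.52 in SJL/J males. Only the SJL/J male columns stand apart, and with 15 to 39 counts per group its log2 difference of -0.63 (SE 0.38, adjusted p = 0.222) was not detectable at this depth. Gins4 stood at 7.38 and 7.83 CPM in TCR1640 females, 10.1 and 6.49 in TCR1640 males, 7.38 and 7.79 in SJL/J females and 8.61 and 8.54 in SJL/J males. Its strain labels overlap, and its log2 difference was -0.02 (SE 0.24, adjusted p = 0.963). Gins3 (-0.51, SE 0.36) had 16 to 36 counts per group. Gins2 had far more counts than any other member, 25429 over all columns, and 67.3% of its exon length overlaps exons of Gse1 on the other strand.

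The clamp loader RFC opens the PCNA ring around DNA. Of 6 members Rfc3 and Rfc5 fell, and Pcna, Rfc1, Rfc2 and Rfc4 did not pass. Rfc3, a small RFC subunit, stood at 12.1 and 8.59 CPM in TCR1640 females, 8.07 and 9.44 in TCR1640 males, 16.7 and 17.0 in SJL/J females and 25.3 and 20.6 in SJL/J males. Every TCR1640 column lay below every SJL/J column, with the widest gap in males. Its log2 difference of -1.06 (SE 0.19, adjusted p = 7.69e-07) was the lowest of the 45 members. Rfc1, the large subunit, stood at 54.03 and 52.3 CPM in TCR1640 females, 58.3 and 60.2 in TCR1640 males, 58.8 and 59.01 in SJL/J females and 54.5 and 50.7 in SJL/J males. Its order of the sexes was reversed between the labels, and its log2 strain difference was 0.02 (SE 0.14, adjusted p = 0.95). Pcna, the clamp itself and a common marker of cycling cells, stood at -0.14 (SE 0.16, adjusted p = 0.585). Rfc5 stood at -0.53 (SE 0.13, adjusted p = 0.000284), with exon overlap with Wsb2, which stood at -0.56.

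Of 6 polymerase and primase genes 5 fell and Pola2 did not pass. Prim2, the large primase subunit, stood at 5.80 and 8.84 CPM in TCR1640 females, 6.83 and 4.72 in TCR1640 males, 12.8 and 11.3 in SJL/J females and 13.8 and 11.3 in SJL/J males. Its labels did not overlap. The log2 difference was -0.91 (SE 0.23, adjusted p = 0.000589), close to that of Prim1, the catalytic primase subunit, at -0.89 (SE 0.22, adjusted p = 0.000623). Neither passed in DESeq2 (adjusted p = 0.2 for Prim2 and 0.197 for Prim1). Pola1 and Pold1, the catalytic subunits of polymerases alpha and delta, fell by 0.72 and 0.71 on the log2 scale. Pole, of the leading-strand polymerase epsilon, fell by 0.54. In DESeq2 the adjusted p was 0.263 for Pola1, 0.148 for Pold1 and 0.355 for Pole. Pola2, the accessory subunit of polymerase alpha, stood at 10.8 and 11.6 CPM in TCR1640 females, 12.8 and 17.5 in TCR1640 males, 17.5 and 16.5 in SJL/J females and 17.5 and 17.3 in SJL/J males. It was low in TCR1640 females and reached the SJL/J range in 1 TCR1640 male column, and its log2 difference of -0.38 (SE 0.19, adjusted p = 0.124) did not pass.

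Of 4 genes for coating single strands and joining fragments, Fen1 and Lig1 fell. Rpa1 and Rpa2, subunits of the single-strand binding protein RPA, did not pass. Rpa1 stood at 43.7 and 43.7 CPM in TCR1640 females, 48.6 and 50.5 in TCR1640 males, 51.9 and 57.6 in SJL/J females and 57.1 and 51.2 in SJL/J males. Its labels did not overlap, but the gap was small, with a log2 difference of -0.22 (SE 0.14, adjusted p = 0.264). Rpa2 stood at 15.02 and 14.1 CPM in TCR1640 females, 18.4 and 16.1 in TCR1640 males, 18.7 and 15.6 in SJL/J females and 18.3 and 16.6 in SJL/J males. Apart from the low TCR1640 females, its groups overlap, and its log2 difference was -0.11 (SE 0.18, adjusted p = 0.705). Fen1, the nuclease that trims Okazaki fragments, fell by 0.56 (SE 0.17) and Lig1, the ligase that joins them, by 0.49 (SE 0.14) on the log2 scale. Both overlap genes on the other strand, and neither passed in DESeq2 (adjusted p = 0.326 and 0.128). The difference between the pairs was not tested.

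Of 5 nucleotide supply genes 4 fell, with a median of -0.81 over both sexes, -0.56 in females and -0.94 in males. Tyms, which makes thymidylate, stood at 3.69 and 3.79 CPM in TCR1640 females, 2.28 and 3.15 in TCR1640 males, 5.90 and 5.19 in SJL/J females and 6.00 and 7.79 in SJL/J males. No TCR1640 column reached an SJL/J column, though no group had more than 54 counts. The log2 difference was -0.95 (SE 0.32, adjusted p = 0.0133), and it lost its call without SJL/J male 2 (adjusted p = 0.0686), TCR1640 male 1 (0.0581) or TCR1640 male 2 (0.05), and in DESeq2 (0.442). Rrm1, the large subunit of ribonucleotide reductase, stood at 41.6 and 41.2 CPM in TCR1640 females, 37.7 and 42.5 in TCR1640 males, 62.0 and 60.7 in SJL/J females and 66.2 and 68.6 in SJL/J males. These are 2 separate levels by label, with little between the sexes. Rrm1 fell by 0.66 (SE 0.14, adjusted p = 4.24e-05), and Rrm2, the small subunit, by 0.81 (SE 0.15, adjusted p = 2.17e-06) on the log2 scale. Dut, which keeps uracil out of DNA, fell by 0.90 (SE 0.17, adjusted p = 2.90e-06). Tk1, the thymidine salvage kinase, was the exception and stood at 0.30 (SE 0.14, adjusted p = 0.0881).

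Among the chromatin genes Uhrf1 and Chaf1a fell, and Chaf1b and Slbp did not pass. Uhrf1, which brings the maintenance methyltransferase to new DNA, stood at 36.6 and 38.9 CPM in TCR1640 females, 48.4 and 47.4 in TCR1640 males, 60.01 and 54.8 in SJL/J females and 61.3 and 65.3 in SJL/J males. The order of the groups was clear, with TCR1640 females lowest, and its log2 difference was -0.50 (SE 0.14, adjusted p = 0.00303, and 0.162 in DESeq2). Chaf1b, of the histone chaperone CAF-1, stood at 8.43 and 10.6 CPM in TCR1640 females, 11.6 and 10.03 in TCR1640 males, 11.3 and 11.3 in SJL/J females and 17.0 and 16.6 in SJL/J males. Only SJL/J males stand apart, and its log2 difference was -0.45 (SE 0.20, adjusted p = 0.086). Chaf1a, the large subunit of CAF-1, stood at -0.86 (SE 0.14, adjusted p = 2.94e-08). Slbp, which binds the stem-loop of histone mRNA, stood at -0.14 (SE 0.16).

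Of the 4 cyclin E and E2F genes, which act upstream of the rest, none fell and Ccne1 rose. Ccne1 (ENSMUSG00000002068, chromosome 7, 38097984 to 38107534 on GRCm38), the cyclin that starts S phase, stood at 36.6 and 31.8 CPM in TCR1640 females, 29.4 and 26.0 in TCR1640 males, 20.9 and 21.9 in SJL/J females and 17.5 and 18.1 in SJL/J males. Every TCR1640 column lay above every SJL/J column. Ccne1 rose by 0.66 (SE 0.16, adjusted p = 0.000408). DESeq2 gave 0.65 (adjusted p = 0.153). E2f1, an activator of S phase genes, stood at 6.59 and 8.08 CPM in TCR1640 females, 9.31 and 9.24 in TCR1640 males, 10.1 and 10.1 in SJL/J females and 10.4 and 7.54 in SJL/J males. Its groups overlap, with TCR1640 females low, and its log2 difference was -0.19 (SE 0.23, adjusted p = 0.603). E2f2, a related activator, stood at 0.23 (SE 0.15, adjusted p = 0.263) and Ccne2, the second cyclin E, at 0.13 (SE 0.13, adjusted p = 0.49).

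**Figure D2:**
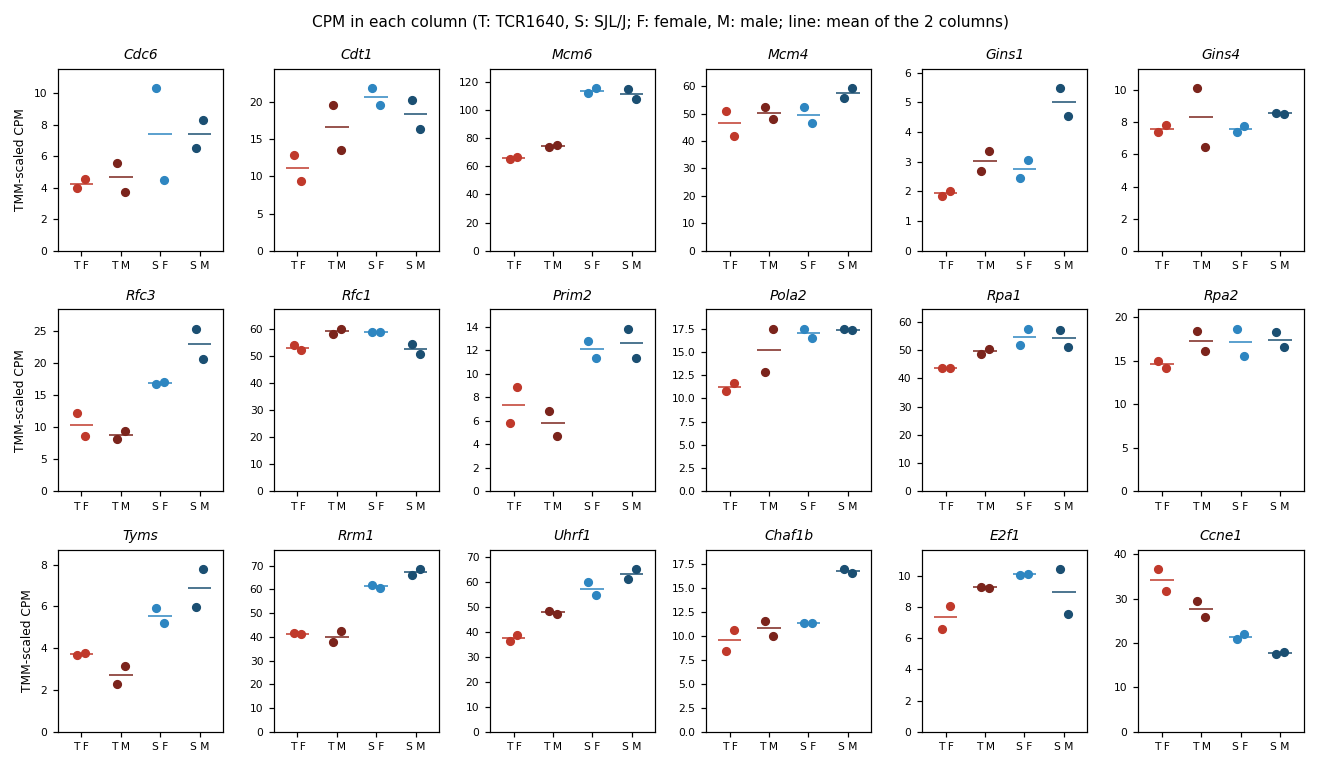
TMM-scaled CPM in each of the 8 columns for the 18 members described by role (points, columns; lines, means of the 2 columns of a group; each y axis starts at 0). Mcm6 and Rrm1 form 2 levels by strain label, Ccne1 is higher under the TCR1640 label, and Mcm4, Gins4 and Rfc1 overlap between labels.

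The strain labels were then compared within each sex, as log2 ratios of summed counts, with no test since n = 1 per group. A member was counted as apart at 1.5-fold or more with its 95% counting interval excluding equality. In females 20 of 45 members were lower under the TCR1640 label and 1 (Ccne1) was higher, where 10.7% and 9.99% of all genes were. In males 15 were lower and 1 (Ccne1) higher, where 12.7% and 11.9% of all genes were. The member medians were -0.56 in females and -0.46 in males, against 0.02 and 0.00 over all genes, and 10 members were apart and lower in both sexes, as were 6.58% of all genes. By value alone, 35 members were lower in both sexes, as were 35.4% of all genes. Without TCR1640 female 1 the female count of 20 became 13. Past 2-fold it was 1 (Prim1, -1.01, interval -1.51 to -0.52). In males 3 passed 2-fold: Rfc3 (-1.38), Tyms (-1.34, -2.06 to -0.65) and Prim2 (-1.12, -1.62 to -0.64). The share of all genes past 2-fold was not counted in either sex. Ccne1 stood at 0.68 (0.40 to 0.96) in females and 0.64 (0.34 to 0.94) in males. All 6 polymerase and primase members were apart in females and 3 in males. None of the 6 MCM members was apart in males, where their ratios ran from -0.58 to 0.01, and 4 were in females. These counts depend on the 1.5-fold cut. The counting intervals of 5 MCM members lay wholly below equality in males, and those of 4 in females. At a log2 ratio of 0.32 or more, 24 members were lower in males, as were 19.4% of all genes.

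**Figure D3:**
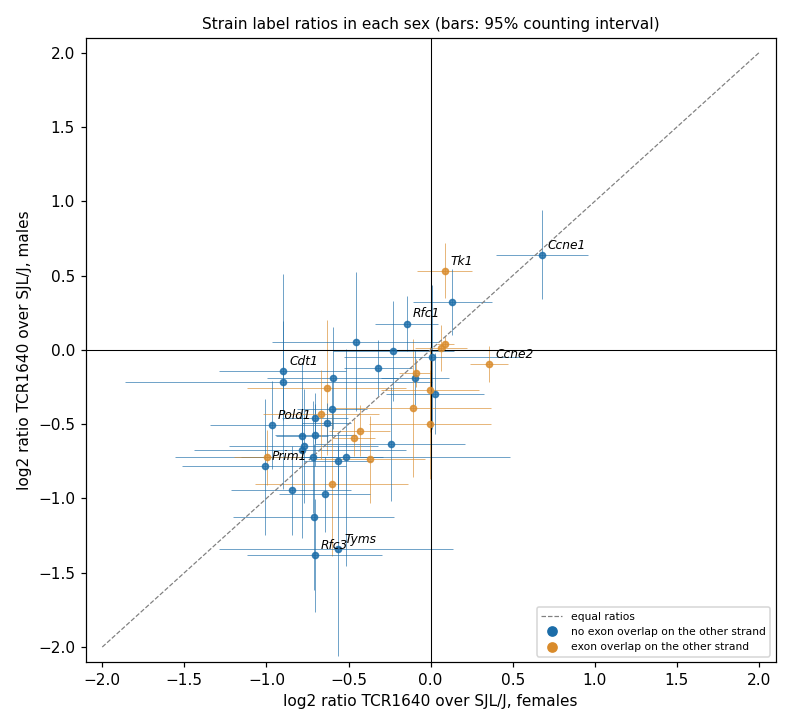
Log2 ratio of the TCR1640 over the SJL/J label in females (x axis) and in males (y axis) for the 45 members, with 95% counting intervals as bars and the line of equal ratios dashed. Most members sit in the lower left, Ccne1 lies farthest to the upper right, and Rfc3 and Tyms lie below the line.

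No member passed the test for sex. Over both strain labels, 0 of 45 members passed edgeR's test for sex, where 1.1% of all genes did. At an unadjusted p under 0.05 there were 7 members in edgeR and 0 in DESeq2. The share of all genes at that unadjusted threshold was not counted, so the 7 cannot be set against it. The members' median log2 difference, male minus female, was 0.08, against 0.00 over all genes. By value, 32 of the 45 members were higher in males, as were 8702 of all 17261 genes. Among the 30 members without overlap 26 were higher in males by value, as were 6128 of 11215 non-overlapped genes. The median of these 30 was 0.15, against 0.03 over non-overlapped genes. In the TCR1640 label 1 member, Pold1, was apart, higher in males at 0.64 (0.27 to 1.01), where 7.84% of all genes were (2.65% higher and 5.19% lower). At a log2 ratio of 0.32 or more 7 were higher, as were 6.26% of all genes, among them Mcm2 (0.42, 0.22 to 0.62), Mcm5 (0.39, 0.14 to 0.64), Uhrf1 (0.34, 0.13 to 0.56) and Cdt1 (0.58, 0.19 to 0.97). Ccne2 went the other way, at -0.53 (-0.65 to -0.42). In the SJL/J label Gins1 (0.85, 0.07 to 1.66) was apart and higher in males, and Tk1 (-0.59, -0.78 to -0.40) was apart and lower, where 6.77% of all genes were apart (2.89% higher and 3.88% lower). The median member had a log2 sex ratio of 0.14 in the TCR1640 label and 0.09 in the SJL/J label, and the median difference between the ratios was -0.04, with -0.06 to 0.05 when 1 column was left out.

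**Figure D4:**
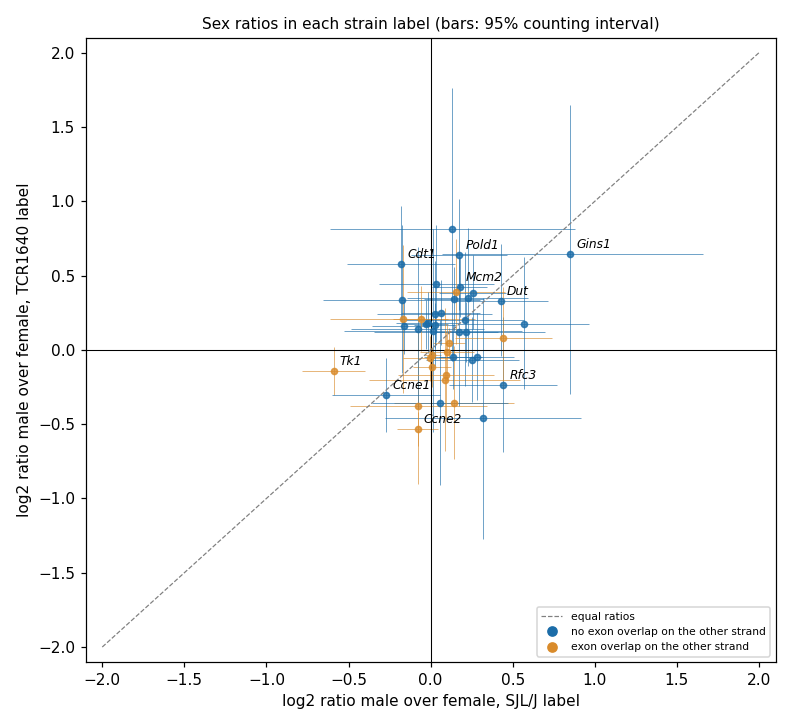
Log2 ratio of males over females in the SJL/J label (x axis) and the TCR1640 label (y axis) for the 45 members, with 95% counting intervals as bars. The points gather near 0, with Gins3, Gins1, Pold1 and Cdt1 highest on the TCR1640 axis, Ccne2 low on it, and Tk1 low on the SJL/J axis.

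Of 33 other replication genes 9 fell and 1 rose between the strain labels in edgeR, where 13.1% of all genes fell and 13.4% rose. The median log2 difference of the 33 was -0.29. The lowest were Dna2, a nuclease and helicase (-1.58, SE 0.35, adjusted p = 6.63e-05), Asf1b, a histone chaperone (-0.76, SE 0.24), and Pole3, a small subunit of polymerase epsilon (-0.70, SE 0.15). Pold4, the smallest subunit of polymerase delta, rose by 0.72 (SE 0.14, adjusted p = 5.61e-06), opposite to the catalytic subunit Pold1. Its summed counts were 469 in TCR1640 females, 659 in TCR1640 males, 295 in SJL/J females and 326 in SJL/J males. Orc4 (0.29) and Mcm9 (0.11) came next and did not pass.

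Of 25 genes that control the step from G1 into S, 7 fell and 2 rose, with a median of -0.26, where 13.1% of all genes fell and 13.4% rose. The 3 lowest all overlap a gene on the other strand and are uncertain. They were Cdk6, a kinase that acts with D-type cyclins (-2.86, SE 0.13, adjusted p = 6.62e-106), E2f8 (-1.52, SE 0.22) and E2f7 (-1.06, SE 0.34), both repressors of E2F targets. Cdk6 had 468 and 821 summed counts in females and males labelled TCR1640 and 3771 and 4555 in those labelled SJL/J. Its partner is Gm17590. Rb1, the retinoblastoma protein that holds E2F back, rose by 0.65 (SE 0.12, adjusted p = 9.00e-07) and overlaps Rcbtb2 and Lpar6. Cdkn1b, the inhibitor p27, rose by 0.57 (SE 0.14, adjusted p = 0.000579) and has no such overlap. Tfdp2, a partner of E2F factors, stood at 0.40 and did not pass. Of 15 mitosis genes 14 fell, with a median of -0.66. Ccnb1, Bub1 and Ttk were lowest, at -1.15, -1.11 and -0.93, while Aurka did not pass at -0.01, above Top2a (-0.50) and Ccnb2 (-0.57).

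**Figure D5:**
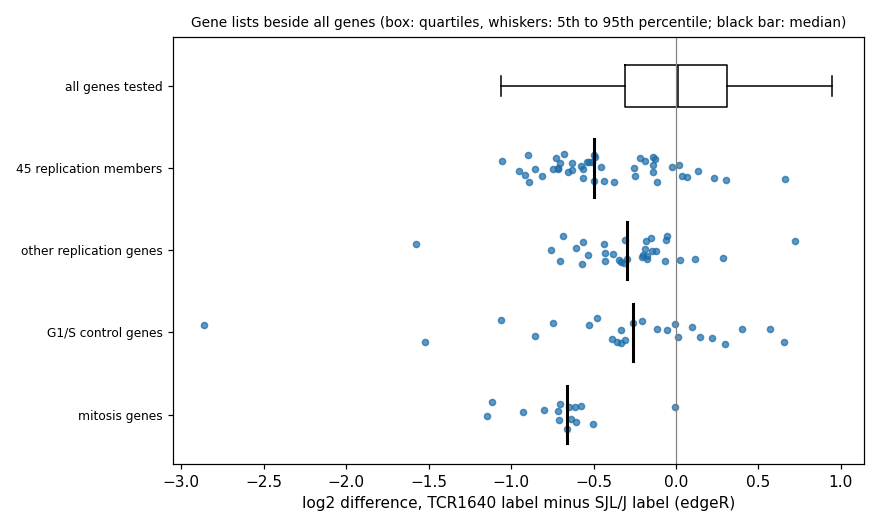
Log2 difference between strain labels for all genes tested (box, quartiles; whiskers, 5th to 95th percentile) and for each gene of 4 lists (points; black bars, medians). Medians stand at -0.50 for the 45 members, -0.29 for other replication genes, -0.26 for G1/S control and -0.66 for mitosis, against 0.01 for all genes.

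The 15 members with an exon of another gene on their opposite strand are less certain than the other 30, which are not free of doubt either. The library kit marks strand, and the strand setting of the counting is not given in the sources used here, so reads of a member and its partner may be mixed. Gins2 had 25429 counts and its partner Gse1 had 3908. The other 30 members depend on the same setting. If it did not match the kit, their counts could hold reads of the other strand in small or large part, which was not tested. Every partner not annotated as protein-coding had more counts than its member. Gm12743 had 1656 against 495 for Orc1, Gm10459 1488 against 790 for Slbp, and Gm15792 1291 against 666 for Pole. Protein-coding partners lay on both sides, with Ap4m1 at 8325 against 2719 for Mcm7, and Gse1 below Gins2. The median log2 difference of the 15 was -0.25, and 6 of them fell, where 13.1% of all genes did. For some, member and partner had like values. Fen1 had 695 counts, while Gm10143, an antisense feature over 78.8% of its exon length, had 36454. Their log2 differences were -0.56 and -0.56. Chaf1a (-0.86) overlaps Ubxn6 (-0.71) over 52.5% of its length. Pole (-0.54) overlaps the antisense feature Gm15792 (-0.56). For others the values parted. Orc1 stood at -0.25 and its antisense partner Gm12743 at -1.03 (SE 0.14, adjusted p = 2.80e-11). Mcm7 stood at 0.04, Ap4m1 at -0.02 and Cops6 at -0.70. Ccne2 stood at 0.13 and Ints8 at -0.75, and Tk1 at 0.30 and Afmid at 0.01. The strand of origin of these reads was not tested.

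Over all genes tested 13.1% fell between the strain labels and 13.4% rose. Among members with an E2F word in a promoter window, 10 of 14 fell and 0 rose, with a median of -0.53. Among those with a window and no such word, 11 of 23 fell and 1 rose, with a median of -0.45. The 8 members without a window, of which 2 fell, were Mcm4, Gins1, Gins2, Gins4, Rfc2, Prim2, Pole and Ccne2. The words are a description of the sequence and say nothing of what was bound in these cells.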

How the data were processed

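RNA from cultured mouse immune cells was measured in 8 libraries, in 4 groups of 2 by strain label and sex, taken from the sample titles. The authors deposited raw whole-number counts per Ensembl gene. Per the labels' protocols, stranded mRNA libraries were made with a KAPA kit from 500 ng of RNA. Bcl2fastq 2.17, HTSeq, Bowtie2 and the mm10 build are listed, per the submitters' processing notes. For the strand setting and annotation release, nothing is stated in those notes as used here. Symbols and positions came from GENCODE M21 on GRCm38 (147 identifiers were not in it), and promoters from RefSeq on GRCm38.p6. The exact 95% intervals are Clopper-Pearson intervals on the split of the summed counts.

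The members and lists were chosen with earlier results of these data known. The 2 columns of a group were summed. An additive model of strain label and sex was fitted in edgeR 4.0.16 under R 4.3.3 to the 4 sums, with TMM factors, filterByExpr, the two-sided quasi-likelihood F test and Benjamini-Hochberg adjustment over all genes at 0.05. It has 1 residual degree of freedom, and its common coefficient of variation was 9.78%. The error of each gene was estimated with sharing across genes. Nothing in the labels says that columns came from separate mice, so the p-values carry no information on variation among animals. Each SE is the log2 difference over the square root of F. Single contrasts are log2 ratios of sums on TMM-scaled library sizes. CPM per column uses TMM factors of the 8 columns. Scripts were tested on simulated data.

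In each role, values in every column are given for the members without opposite-strand exon overlap with the lowest and the highest strain difference, plus members called for sex or of opposite sign in the sexes with both intervals excluding equality, of which there were none. The 3 highest and 3 lowest genes of the other lists are named. Further members named by value were chosen after their values were seen. Alternatives were other scaling factors, filters and folds, DESeq2 1.42.0, the 8 columns as replicates, and leaving out each column.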

Additional observations from a re-analysis of the deposited data

Results flagged for a closer look

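Members were flagged for a sex ratio that differed between the strain labels by either of 2 rules. Either male and female columns stood apart in opposite orders, or the interaction test of the 8 columns taken as replicates passed. That test compares libraries and not mice, and a smaller share of the members passed it than of all genes. By the order of columns, which is no test, the log2 ratio of males over females in the TCR1640 label minus that in the SJL/J label was -0.50 for Orc1 (which overlaps Gm12743), 0.32 for Rfc1, -0.78 for Tyms and 0.27 for Chaf1a (which overlaps Ubxn6). Orc1, Tyms and Chaf1a had counting intervals of the difference that include 0, and that of Rfc1 ran from 0.06 to 0.58. By the interaction test in edgeR, with a summed-count difference of 0.76 for Cdt1 (adjusted p = 0.0441), 0.45 for Tk1 (adjusted p = 0.0142) and -0.45 for Ccne2 (adjusted p = 7.46e-06), 3 members passed, where 10.2% of all genes did. Tk1 and Ccne2 overlap Afmid and Ints8. Counting intervals of the difference excluded 0 for 6 members, Rfc1, Cdt1, Tk1, Ccne2, Rfc3 and Pold1. Rfc3 (-0.68, -1.22 to -0.13) and Pold1 (0.46, 0.004 to 0.92) met neither rule above. The share of all genes with such an interval, or with columns in opposite orders, was not counted. What lies behind these differences was not tested.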

How the results depend on the processing

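The median of all 45 members in the test over both sexes stayed between -0.53 and -0.48 under the alternatives run for it, and no called member changed sign. Within one sex it ran from -0.62 (members without overlap) to -0.46 (without TCR1640 female 1) in females, and from -0.50 (members without overlap) to -0.43 (TMM on genes without overlap) in males. In the test over both sexes, DESeq2 called 8 members lower in place of 23, 0 higher in place of 1, 6 in place of 17 without overlap, and 1410 genes in all in place of 4572. With the 8 columns as replicates and no replicate block, edgeR called 28 members lower and 5 higher, and 7821 genes in all. The columns with the same number did not deviate together (correlations from -0.02 to 0.03 over 6 pairs of groups), so the numbers do not pair the columns. With a replicate block the counts were 28, 5 and 7857. Leaving out 1 column each time gave 20 to 22 members lower, 14 to 16 of them without overlap, 1 higher, and 3553 to 4330 genes in all. For sex, the 8 columns gave 5 members higher and 3 lower (1 without overlap) with and without the replicate block, and 2759 genes in all (2875 with the replicate block) in place of 190. All-gene counts for sex were 108 with upper-quartile factors, 118 with no filter beyond 1 count, 7 with DESeq2 and 8 to 143 with 1 column left out, lowest without TCR1640 male 2. Within females, 2-fold left 1 member lower and 0 higher, log2 0.32 gave 2 higher, and leaving out a column gave 13 to 19 lower and 0 to 1 higher. Within males, 2-fold left 3 lower and 0 higher, log2 0.32 gave 24 lower and 2 higher, and leaving out a column gave 13 to 16 lower and 0 to 2 higher. For sex in the TCR1640 label, RLE factors gave 2 higher, log2 0.32 7 higher and 1 lower, 2-fold 0 higher, and leaving out a column 1 to 2 higher. For sex in the SJL/J label, 0 were lower with upper-quartile factors, at 2-fold and without overlapped members. There, log2 0.32 gave 5 higher, 2-fold 0, and leaving out a column 0 to 3 higher and 0 to 1 lower. The cause of these changes was not tested beyond fewer counts or a different threshold. Shares of all genes past 2-fold were not counted. The median member had 695 counts in all and a counting half-width of 0.34 in log2 in females, so smaller differences of a typical member were not detectable at this depth.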
